A study of Mus musculus with 77 samples.

Results

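The retinas of mice that had just left 75% oxygen were compared with those of mice kept in room air, on postnatal day 12 (P12). The 25 arrays of that day, 13 from OIR mice and 12 from control mice, were chosen by the day and the oxygen status in their sample labels, out of 77 retina arrays in all. All animals were C57BL/6 pups. The OIR mice were kept with their dam in a chamber at 75% oxygen from P7 until they were killed on P12, and the control mice spent the same days in a chamber at 21% oxygen. The other 52 arrays came from mice killed on P17 or P28, after a return to room air. Both retinas of a mouse were pooled, so that each array stands for 1 mouse, and its RNA was hybridized together with universal mouse reference RNA on a 2-color array. Oxygen was assigned to whole litters, and the study lists 12 litters for each P12 group. Which mice were littermates is not in the labels, so litter could not be a term in the fit, and p-values take the mice as independent.

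In oxygen-induced retinopathy (OIR), a rodent model of retinopathy of prematurity, high oxygen is given while the retinal vessels are still growing. Immature capillaries of the central retina then close and disappear (vaso-obliteration), and new vessels sprout only after the return to room air, when the avascular tissue becomes hypoxic. The end of the oxygen exposure is therefore the stage of vessel loss, before neovascularization. In mice of this age the retina consists mainly of rods, with cones, interneurons, ganglion cells and glia, and its vessels are made of endothelial cells wrapped by pericytes.

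Each probe was expressed as log2 of retina over reference. In the offset ratio, the main value here, an offset of 50 was added after background correction, so that the ratios of dim spots are pulled to 0. The deposited ratio is the authors' own processed value, without an offset. The labels place the retina in Cy5, but rod photoreceptor genes were brighter in Cy3 on every array, with a log2 ratio of at least 4.18, and the deposited values are Cy3 over Cy5. All signs below therefore take Cy3 as the retina, against the labels. The number of probes well above background ranged from 15954 to 27449 in OIR mice and from 17396 to 28850 in control mice. The arrays of 1 OIR and 2 control mice that shared a slide were among the highest, with 27449 to 28850 such probes, and a control mouse of another slide had 27899. The count of differentially expressed probes is also given without that slide. Markers of tissue next to the retina varied between mice of both groups. The mean offset ratio of 16 lens genes ran from −0.00 to 0.63 in OIR and from −0.02 to 0.84 in control mice, and none of these genes was differentially expressed. Their part in the results below was not tested.

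On P12, 12 of the 55681 probes were differentially expressed (adjusted p under 0.05, limma with Benjamini-Hochberg adjustment), which is 0.0216% of the probes. All 12 were lower in OIR mice and none was higher. They stood for *Egfl7*, *Apod*, *Gng11*, *Abcc9*, *Cd34*, *Fn1*, *Cd93*, *Ushbp1*, *Higd1b*, *Acvrl1*, *Acaa1a* and *Ramp2*, most of which are known as genes of endothelial cells and pericytes. Before adjustment, 918 probes were lower (1.65%) and 823 were higher (1.48%) at a p under 0.05, so that over all probes the directions were nearly balanced. Over the 21160 genes with a symbol, each with its brightest probe, 408 were lower and 280 higher at that level. In whole retinas, fewer cells of a type and less RNA per cell cannot be told apart. When log2 changes of −1 and −0.5 were added to 100 simulated probes each, 88 and 50 were recovered with 6 false calls. With 200 changed probes the Benjamini-Hochberg adjustment is less strict than with the 12 called here. These rates need not hold for the real comparison, in which fewer changes may be recovered. Smaller changes could often be missed with this number of mice.

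**Figure D1:**
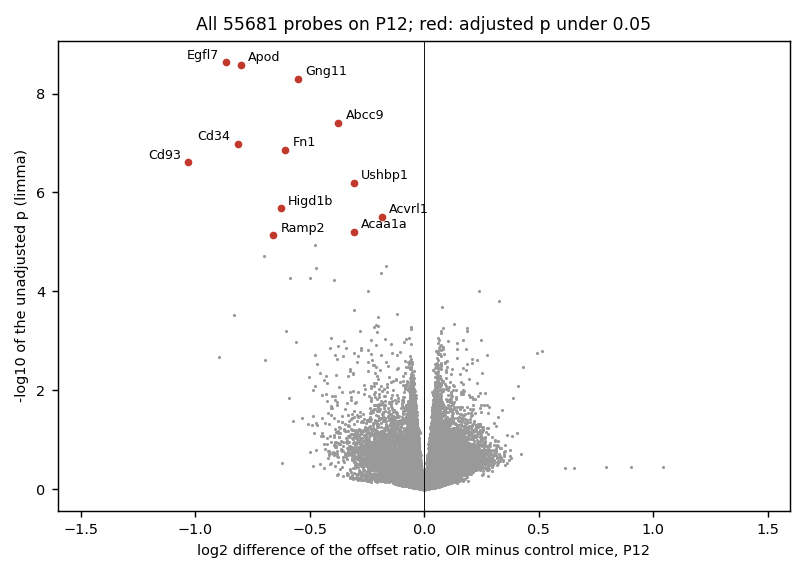
Each point is 1 of the 55681 probes, with the log2 difference of the offset ratio between OIR and control mice on the x axis and −log10 of the unadjusted limma p on the y axis. The 12 differentially expressed probes, in red and named, all lie on the side of lower values in OIR mice.

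Among the endothelial genes, *Egfl7*, which encodes a matrix protein secreted by endothelial cells, had an offset ratio between −0.00 and 0.83 in OIR mice (median 0.31) and between 0.88 and 1.66 in control mice (median 1.21). Every OIR mouse lay below every control mouse. The difference was −0.86 (standard error 0.0946, adjusted p = 7.33e-05, limma), a level 1.82-fold lower in OIR mice, and the deposited ratio gave a 2.08-fold lower level. *Cd34*, a sialomucin on the surface of endothelial and blood progenitor cells, ranged from −3.30 to −2.09 in OIR mice (median −2.57) and from −2.12 to −1.37 in control mice (median −1.85). Only the ends of the ranges met, and all 13 OIR mice were below the control median. *Cd34* was lower by 0.81 on the log2 scale of the offset ratio, or 1.76-fold (adjusted p = 0.00114, limma), and 2.82-fold with the deposited ratio. *Cd93*, a transmembrane lectin of endothelial cells, had the largest offset-ratio difference of the 12 genes, with −1.03 (adjusted p = 0.00196, limma, standard error 0.146) or 2.04-fold, while with the deposited ratio *Abcc9*, *Cd34* and *Higd1b* had larger ones. Its offset ratio ran from 0.24 to 1.34 in OIR mice (median 0.79) and from 1.34 to 2.53 in control mice (median 1.84), so that the ranges met at their ends.

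The other endothelial genes among the 12 are parts of signaling systems. *Ramp2* encodes the subunit that makes the calcitonin receptor-like receptor respond to adrenomedullin. Its offset ratio was 0.39 to 1.75 in OIR mice (median 1.12) and 1.23 to 1.99 in control mice (median 1.68), with a difference of −0.66 (adjusted p = 0.0341, limma). The highest OIR mouse was above the control median, and with the deposited ratio the difference of −0.55 was not significant (adjusted p = 0.469, limma). *Acvrl1*, the gene of the BMP receptor ALK1, had a small difference of −0.18 (adjusted p = 0.0172, limma), from −0.14 to 0.14 in OIR mice (median 0.02) against 0.02 to 0.28 in control mice (median 0.21). With the deposited ratio the level was 1.5-fold lower and every OIR mouse lay below every control mouse. *Ushbp1*, a gene that serves as an endothelial marker, was 0.03 to 0.39 in OIR mice (median 0.17) and 0.35 to 0.74 in control mice (median 0.49). It was lower by 0.31 on the log2 scale (adjusted p = 0.0044, limma), and 2.0-fold lower with the deposited ratio. Its second, dimmer probe was not differentially expressed.

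A pair of the 12 genes mark pericytes, the contractile cells around capillaries. *Abcc9*, the sulfonylurea receptor subunit of ATP-sensitive potassium channels, had an offset ratio from 0.04 to 0.56 in OIR mice (median 0.17) and from 0.41 to 0.77 in control mice (median 0.57), and every OIR value was under the control median. Its spot stood well above background for 7 OIR mice and for all 12 control mice. The difference was −0.37 (adjusted p = 0.000547, limma), or 1.3-fold, while the deposited ratio, which has no offset, gave 3.94-fold. *Higd1b*, a small mitochondrial protein of pericytes, was 0.07 to 0.81 in OIR mice (median 0.31) and 0.63 to 1.57 in control mice (median 0.87). Its difference was −0.62 (adjusted p = 0.013, limma), 1.54-fold with the offset ratio and 2.34-fold with the deposited ratio.

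The remaining 4 genes have other roles. *Fn1* encodes fibronectin, an adhesive matrix protein. Its offset ratio was far below 0 in all mice, with −4.97 to −4.25 in OIR mice (median −4.64) and −4.30 to −3.71 in control mice (median −4.02), and it was 1.52-fold lower in OIR mice (adjusted p = 0.00126, limma). *Apod*, the gene of the lipid-binding apolipoprotein D, ran from 0.05 to 0.84 in OIR mice (median 0.44) and from 0.86 to 1.79 in control mice (median 1.28). As with *Egfl7*, no OIR mouse reached the lowest control mouse. *Apod* was 1.74-fold lower (log2 difference −0.80, adjusted p = 7.33e-05, limma), and its other probe, above background on 2 arrays, had a difference of 0.00. *Gng11*, a gamma subunit of heterotrimeric G proteins, was −1.26 to −0.58 in OIR mice (median −0.86) and −0.60 to −0.17 in control mice (median −0.35), a 1.46-fold lower level (adjusted p = 9.21e-05, limma). *Acaa1a*, a peroxisomal thiolase of fatty acid oxidation and no vessel gene by its known function, was 0.67 to 1.18 against 1.05 to 1.46, with medians of 1.02 and 1.32. Its difference of −0.31 (adjusted p = 0.0312, limma) was not significant with the deposited ratio (adjusted p = 0.105, limma).

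**Figure D2:**
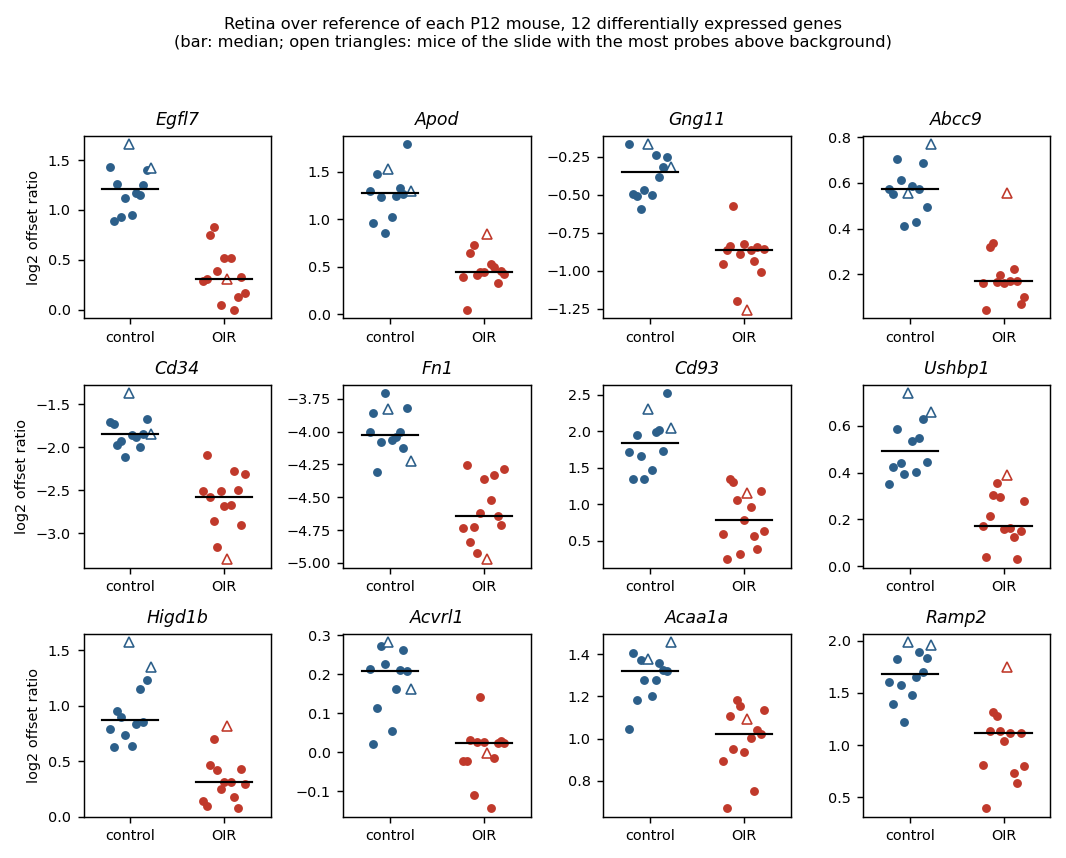
Log2 offset ratio of retina over reference for each P12 mouse, control mice in blue and OIR mice in red, with 1 panel and its own y axis for each of the 12 differentially expressed genes. Bars are medians and open triangles are the 3 mice of the slide with 27449 to 28850 probes above background. *Egfl7* and *Apod* are the panels in which all 13 OIR mice lie below all 12 control mice.

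Of all 55681 probes, those of *Egfl7* and *Apod* were the 2 in which every OIR mouse lay below every control mouse (0.00359% of the probes), and there was no probe in which every OIR mouse lay above every control mouse. With the deposited ratio, 15 probes were fully separated, all lower in OIR mice (0.0269%). They belonged to *Abcc9*, *Acvrl1*, *Adgre5*, *Cavin1*, *Cd248*, *Cd34*, *Egfl7*, *Fn1*, *Hspg2*, *Icam2*, *Nid1*, *Pdgfb*, *Plxnd1* and *Ushbp1*, and 1 had no gene symbol.

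The P12 arrays lay on 9 slides, of which 7 held mice of both groups. In each of the 12 genes, the OIR mice were lower than the control mice of the same slide on all 7 of these slides. The within-slide differences ran from −2.21 to −0.64 for *Cd93* and from −1.36 to −0.44 for *Egfl7*, and from −0.22 to −0.07 for *Acvrl1*, the smallest of the 12. With the slide as a block, 16 probes were differentially expressed (0.0287%), all lower. They were the same 12 and in addition *Plxnd1*, *Robo4* and both probes of *Ptprb*. *Plxnd1*, a semaphorin receptor of endothelial cells, had an adjusted p of 0.05 without the block and lay just outside the threshold (log2 difference −0.47, limma), and all 13 OIR mice were below the control median. With the block its difference was −0.51 (adjusted p = 0.00205, limma). Without the slide of the 3 mice with 27449 to 28850 probes above background, 14 probes were differentially expressed, 13 lower and 1 higher, and 10 of the 12 genes remained. *Acvrl1* (adjusted p = 0.0725) and *Acaa1a* (adjusted p = 0.105) did not, and the higher probe was that of *Mri1*.

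**Figure D3:**
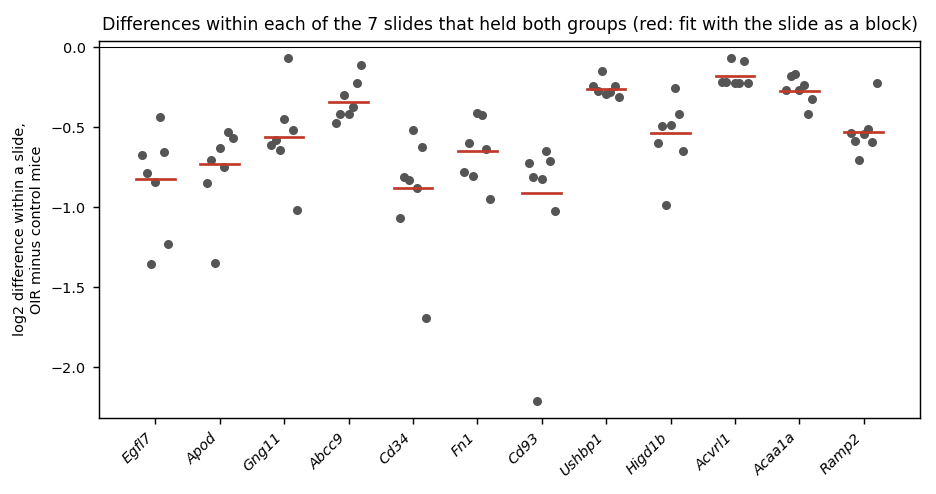
Within-slide log2 differences of the offset ratio, OIR minus control mice, for the 12 differentially expressed genes. Each gray point is 1 of the 7 slides with both groups and the red bar is the fit with the slide as a block. All points lie below 0, in genes chosen for this difference on these arrays.

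By the *Xist* and Y-linked signals of the arrays, 8 of the OIR mice were female and 5 male, against 5 female and 7 male control mice. With sex in the fit, 10 probes were differentially expressed, and *Acaa1a* (adjusted p = 0.075) and *Ramp2* (adjusted p = 0.0788, limma) were not among them. In the reference channel alone, which held the same RNA on each array, no probe was differentially expressed by limma and 2066 had an unadjusted p under 0.05. The reference signal at the spots of *Cd93* (log2 difference −0.08) and *Apod* (−0.06) was somewhat lower in OIR mice, with unadjusted p of 0.00935 and 0.0311 (limma). The part of the reference in the differences reported for these genes was not tested.

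With the deposited ratio, 39 probes were differentially expressed (0.07%), 38 lower (0.0682%) and 1 higher (0.0018%), and they stood for 36 genes. Of the 12 genes above, 10 were among them, all except *Acaa1a* and *Ramp2*. The others include further surface receptors and junction genes of the endothelium. *Ptprb*, the gene of the vascular endothelial phosphatase VE-PTP, had a deposited ratio of 2.62 to 5.37 in OIR mice (median 4.44) and 4.95 to 6.66 in control mice (median 5.42), 2.70-fold lower (adjusted p = 0.0398, limma). *Robo4*, a guidance receptor of endothelial cells, was 2.82-fold lower (adjusted p = 0.0398), and *Icam2*, an adhesion molecule, was 2.58-fold lower, from −3.02 to −1.28 in OIR mice and −1.15 to 0.75 in control mice without overlap (adjusted p = 0.00431, limma). *Mmrn2*, an endothelial matrix protein that binds CD93, was 2.86-fold lower (adjusted p = 0.0431, limma), and *Adgre5*, the adhesion receptor CD97, 2.77-fold lower (adjusted p = 2.04e-06, limma). These 5 genes were also lower with the offset ratio, by −0.70 to −0.38 on the log2 scale, but with adjusted p from 0.0778 to 1.0 (limma).

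Transcription factors and signaling proteins of vessel cells formed another set of genes found only with the deposited ratio. *Ets1*, a transcription factor of endothelial and blood cells, was 2.67-fold lower (adjusted p = 0.000216, limma), and *Lmo2*, a transcriptional cofactor of the same lineages, 1.54-fold lower (adjusted p = 0.000464). *Foxq1* was 2.67-fold and *Hic1* 2.54-fold lower. *Ccm2l* had the largest difference of all the genes called with the deposited ratio, with 4.16-fold (adjusted p = 0.0371, limma), followed among the genes not called with the offset ratio by *Adcy4* with 3.1-fold and *Arap3* with 2.91-fold. The spots of these 3 genes passed the background test for 3 of 13 OIR mice and 9 of 12 control mice each, so that for most OIR mice the value is one of a dim spot. With the offset ratio their log2 differences were −0.23, −0.12 and −0.18 (adjusted p = 1.0 each, limma). *Pdgfb*, the growth factor by which endothelial cells recruit pericytes, was above background on every array. It was 1.58-fold lower with the deposited ratio, −1.93 to −1.36 in OIR mice against −1.25 to −0.64 in control mice (adjusted p = 0.000117, limma).

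Matrix, caveolar, pericyte and transport genes made up most of the rest. *Nid1* (nidogen, 2.21-fold lower) and *Hspg2* (perlecan, 1.90-fold lower) belong to the vessel basement membrane, *Cavin1* (1.87-fold lower) to caveolae, and *Cd248* (2.04-fold lower) to pericytes and fibroblasts. In all 4, every OIR mouse was below every control mouse with the deposited ratio. With the offset ratio they overlapped, and *Nid1* and *Hspg2* had unadjusted p of 0.19 and 0.376 (limma). *Mfsd2a*, the lipid transporter of the blood-retina barrier, was 1.67-fold lower (adjusted p = 0.0266, limma), and *Slc40a1*, the iron exporter ferroportin, 1.85-fold lower (adjusted p = 0.0294, limma). *Tagln2*, *Ctla2a*, *Angptl4*, *Ly6c1* and *Cxcl12* were 1.51-fold to 2.51-fold lower. A further 2 probes without a gene symbol were called although they were not well above background on any P12 array, so that their values carry no measured level.

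For 6 of the 12 genes, promoter sequences were at hand in RefSeq (mouse build GRCm38.p6), in 8 windows of 250 bases before to 50 bases after a transcription start, since *Egfl7* has several starts. *Acvrl1*, *Cd93*, *Fn1*, *Gng11*, *Higd1b* and *Ramp2* had no entry in the table. The windows were searched for CAGGAA, a form of the core bound by ETS factors, a family with known roles in endothelial genes, and for ACGTG, the core of the hypoxia response element, on both strands. CAGGAA occurred in 6 of the 8 windows and in 5 of the 6 genes, all except *Acaa1a*, and in 30.6% of all 32851 windows of the table. ACGTG occurred in none of the 8 windows and in 19.6% of all windows. The motifs do not overlap each other, and a match is a description of the letters and not a binding site. The 250 bases before the start are shown for the endothelial genes *Cd34*, *Egfl7* (its second start) and *Ushbp1* and for the pericyte gene *Abcc9*, with CAGGAA or its reverse complement in capitals. They lie at chr1:194938571-194938820 (+ strand), chr2:26583615-26583864 (+ strand), chr8:71395802-71396051 (− strand) and chr6:142702275-142702524 (− strand). The motif begins 194 and 141 bases before the start in *Cd34*, 81 bases before it in *Egfl7*, 63 in *Ushbp1* and 102 in *Abcc9*.
Cd34: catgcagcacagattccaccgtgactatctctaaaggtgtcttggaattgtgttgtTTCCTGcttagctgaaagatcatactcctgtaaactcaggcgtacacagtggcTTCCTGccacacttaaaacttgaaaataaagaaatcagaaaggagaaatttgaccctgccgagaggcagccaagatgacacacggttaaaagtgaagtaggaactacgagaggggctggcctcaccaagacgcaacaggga
Egfl7: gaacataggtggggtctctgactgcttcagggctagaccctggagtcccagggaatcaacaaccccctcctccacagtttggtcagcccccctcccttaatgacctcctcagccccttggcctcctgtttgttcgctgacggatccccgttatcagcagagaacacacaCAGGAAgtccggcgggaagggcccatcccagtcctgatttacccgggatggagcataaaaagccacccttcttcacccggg
Ushbp1: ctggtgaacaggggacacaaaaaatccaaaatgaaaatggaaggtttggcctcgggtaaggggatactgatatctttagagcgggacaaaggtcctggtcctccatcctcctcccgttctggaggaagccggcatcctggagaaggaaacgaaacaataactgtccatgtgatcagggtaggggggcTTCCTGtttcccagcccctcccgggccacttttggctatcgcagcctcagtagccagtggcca
Abcc9: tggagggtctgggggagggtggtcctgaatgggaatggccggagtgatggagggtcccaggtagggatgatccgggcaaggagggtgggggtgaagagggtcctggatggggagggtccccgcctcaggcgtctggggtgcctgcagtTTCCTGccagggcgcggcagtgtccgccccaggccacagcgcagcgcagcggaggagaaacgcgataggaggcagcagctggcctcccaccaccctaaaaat

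Lists of marker genes describe the difference over more genes. All lists were chosen with earlier results of these data known, and several hold genes named above. A gene stood with its brightest probe. The 14 genes, *Apod* among them, named as vessel genes for P12 by the study or by an earlier analysis of the same arrays were all lower, 6 of them differentially expressed, with a median log2 difference of −0.48, but these genes were chosen on these samples and are no independent evidence of their direction. The mean offset ratio of this list was −0.16 to 0.07 in OIR and 0.22 to 0.81 in control mice, without overlap. Of 40 other endothelial markers, 34 were lower, 13 of them at an unadjusted p under 0.05 (32.5%, against 1.93% of all genes with a symbol), and 1, *Ushbp1*, was differentially expressed. Their median was −0.07 with the offset ratio and −0.49 with the deposited ratio, beside −0.00065 and −0.011 over all probes, and 50.8% of all probes were lower. The mean of these 40 genes ran from −0.23 to −0.08 in OIR mice and from −0.11 to 0.19 in control mice, with little overlap. Only 7 of the 40 were well above background on every P12 array. With the deposited ratio 4 of the 40 were differentially expressed. Since this list too was chosen with earlier results known, its direction is no independent evidence.

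Among those 40 markers, *Vwf*, the von Willebrand factor stored in endothelial granules, had a log2 difference of −0.59 (adjusted p = 0.16, limma), and every OIR mouse was below the control median. *Cdh5*, the VE-cadherin of endothelial junctions, had −0.31 (adjusted p = 0.542), with a spot above background for 5 and 11 mice of the OIR and control groups. *Nos3*, the endothelial nitric oxide synthase, had −0.28 (adjusted p = 0.894). The probe of *Pecam1*, another defining endothelial marker, passed the background test for 6 of the OIR and 9 of the control mice and had a log2 difference of −0.00 (95% interval −0.04 to 0.04).

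Of 14 pericyte genes, 10 were lower (71.4%, against 51.7% of all genes with a symbol). At an unadjusted p under 0.05, 4 were lower (28.6%, against 1.93% of all genes with a symbol). *Abcc9* and *Higd1b*, already described above, were the 2 differentially expressed, against 0.0216% of all probes. The median was −0.16 with the offset ratio and −0.85 with the deposited ratio. *Ndufa4l2*, next in order of p, had −0.47 (adjusted p = 0.118, limma), and 12 of the 13 OIR values were under the control median. The 9 genes of arterial smooth muscle had a median of 0.10 and of −0.05 with the slide as a block, and none was differentially expressed. With the offset ratio 7 were higher and 2 lower, both of the latter at an unadjusted p under 0.05 (22.2%, against 1.93% of all genes with a symbol). With the block 7 were lower. Only 3 of the 9 were above background on every P12 array, and 4 were above it on none. Their contractile gene *Myh11* was not above background in any P12 mouse. Among 11 basement membrane genes, 8 were lower (median −0.14), none of them differentially expressed with the offset ratio, with −0.18 for both *Lama4* and *Lamb1*.

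Barrier and transport genes of retinal capillaries had a median of −0.07 with the offset ratio, with 18 of 21 lower and none differentially expressed. With the deposited ratio the median was −0.37, with 16 lower and *Mfsd2a* differentially expressed. The tight junction gene *Cldn5* ran from 0.19 to 1.74 in OIR mice (median 0.87) and from 0.76 to 2.88 in control mice (median 1.79). All OIR mice were below the control median, but the spread within groups was wide, and the difference of −0.89 (95% interval −1.43 to −0.36) had an adjusted p of 1.0 (limma). The amino acid transporter *Slc38a5* had −0.60 (adjusted p = 0.894, limma), also with all OIR mice below the control median. In 10 red blood cell genes, 8 were lower, 5 of them at an unadjusted p under 0.05 (50%, against 1.93% of all genes with a symbol). The globin *Hba-a2* ran from 1.04 to 2.97 in OIR mice (median 2.32) and from 1.96 to 3.65 in control mice (median 3.16), with a difference of −0.83 (adjusted p = 0.617, limma). *Hba-a1* had −0.69 and *Hbb-bt* −0.48, and probes of such closely related globins may share their targets. None of the red blood cell genes was differentially expressed with either ratio.

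Ligands and receptors of vessel growth were described in the same way. Of 10 VEGF ligands and receptors, 4 were lower, none was differentially expressed, and the median was 0.01, and −0.03 with the deposited ratio. *Vegfa*, the main hypoxia-induced growth factor of retinal vessels, was −1.06 to −0.19 in OIR mice (median −0.62) and −0.99 to −0.09 in control mice (median −0.34), with overlap over most of the range. Its difference of −0.21 (95% interval −0.40 to −0.03) had an adjusted p of 1.0 (limma) and lies within 1.5-fold. Its receptor *Flt1* had −0.29 (95% interval −0.56 to −0.03), and for *Kdr*, the other main receptor, the interval from −0.62 to 0.61 leaves the size of a change unknown. The 13 tip cell genes, which mark the leading cells of sprouts, had a median of −0.00 with the offset ratio, with 7 lower and none differentially expressed. With the deposited ratio the median was −0.25, with 11 lower and 1 of them differentially expressed. Of 19 Notch and ALK1-BMP genes, *Acvrl1* was the one differentially expressed, with 12 lower and a median of −0.04 with the offset ratio, against 16 lower and −0.21 with the deposited ratio. Of 10 genes of the angiopoietin-Tie and adrenomedullin systems it was *Ramp2*, with 4 lower and a median of 0.00, against 9 lower, none of them differentially expressed, and −0.13 with the deposited ratio.

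In the lists below of genes that answer to oxygen, no member was differentially expressed with either ratio. This holds for the listed genes only, and *Angptl4*, lower with the deposited ratio above, was not among them. In 28 targets of the hypoxia-inducible factors (HIF), 16 were lower, 3 at an unadjusted p under 0.05 and 1 higher at that level, and none was differentially expressed. The median was −0.06 with the offset ratio, and −0.19 with the deposited ratio, where 23 were lower. With the offset ratio 14 of the 18 that were above background on all arrays had intervals within 1.5-fold. The largest by p were the lactate exporter *Slc16a3* (−0.32, 95% interval −0.54 to −0.11) and *Ankrd37* (−0.21). The 9 HIF subunits and oxygen sensors had a median of −0.01, and 0.05 with the deposited ratio. Glycolytic enzymes had a median of −0.11 with 12 of 17 lower, led by *Pfkp* (−0.35, adjusted p = 1.0, limma), and respiratory chain subunits a median of 0.08 with 1 of 18 lower, led by *Cox4i1* (0.17) and *Cox6a1* (0.16). In both lists no gene was differentially expressed. Antioxidant genes and NRF2 targets, which oxidants induce, had a median of 0.06 in 25 genes, with *G6pdx* at 0.21 and *Txnrd1* at 0.22 and none differentially expressed. With the deposited ratio this median was 0.00066. Targets of p53, genes of the integrated stress response and genes of cholesterol synthesis had medians of 0.07 (0.06 with the deposited ratio), 0.12 (−0.01) and 0.10 (0.18), and circadian and glucocorticoid-induced genes −0.00 (0.08 with the deposited ratio) and 0.01 (−0.02). None was differentially expressed. All measured genes of these 5 lists that were above background on every array had intervals within 1.5-fold with the offset ratio. With the deposited ratio this held for 6 of 10 cholesterol genes, 9 of 10 p53 targets and all such genes of the other lists.

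**Figure D4:**
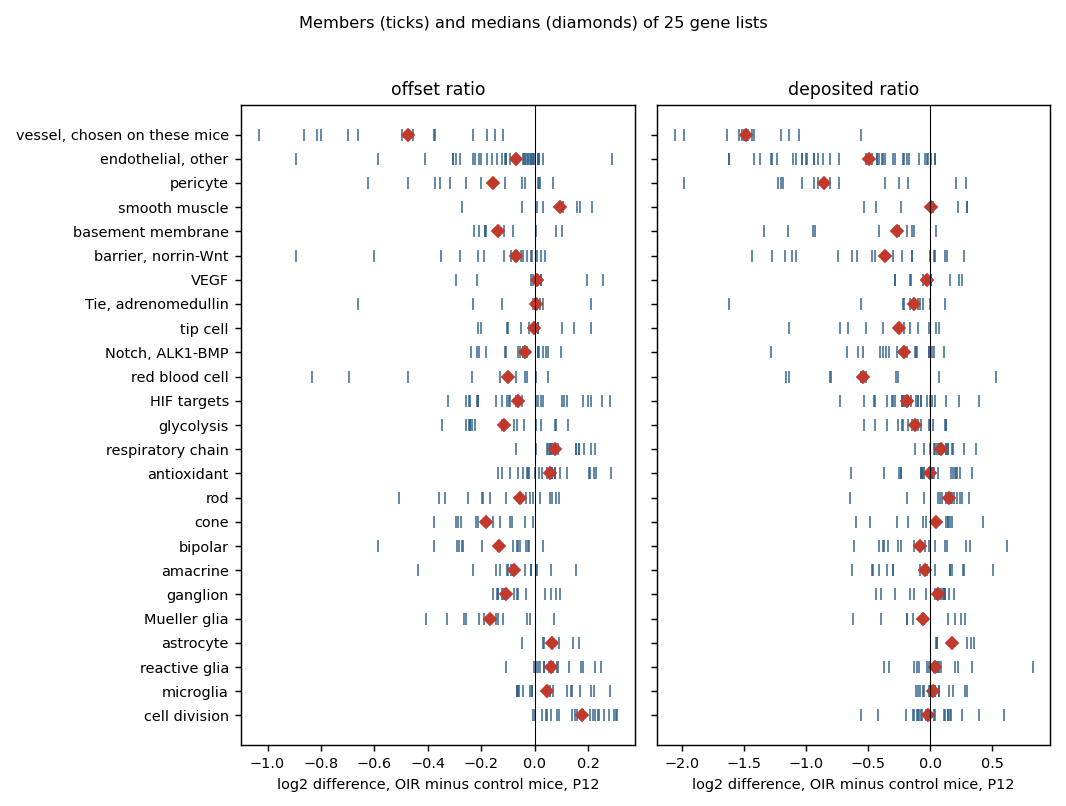
Log2 differences between OIR and control mice on P12 for the members (ticks) and the median (diamonds) of 25 gene lists, with the offset ratio on the left and the deposited ratio on the right. The medians of the endothelial and pericyte lists lie to the left of 0, farther with the deposited ratio, while those of the neuronal and glial lists drawn here lie between −0.18 and 0.18. The first list was chosen on these samples.

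To describe what moved little, the 95% limma interval of each difference was set against limits of 1.5-fold in either direction. An interval inside the limits bounds the size of a difference and does not show that there was none. This was done for the 13488 probes that were well above background on all 25 arrays. Probes that were dim in some mice are not covered. Of the 12 differentially expressed probes 9 were included, and those of *Abcc9*, *Acvrl1* and *Ushbp1* were not. Among the 13488 probes, 11870 (88.0%) had an interval inside the limits. For 7287 (54.0%) it lay inside narrower limits, a ratio of at most 5 to 4 between the groups. The deposited ratio gave 9243 (68.5%) for 1.5-fold, and the slide as a block 12504 (92.7%). The intervals had a median width of 0.45 on the log2 scale. In 4 probes, those of *Cd93*, *Egfl7*, *Apod* and *Cd34*, the whole interval lay beyond 1.5-fold.

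No gene of any neuronal or glial list was differentially expressed. All 18 rod genes were well above background on all arrays, with a median of −0.06 with the offset and 0.15 with the deposited ratio, opposite in sign. Their median with the offset ratio rested on single mice: it was 0.01 without OIR mouse 31, −0.34 without the slide of 3 mice described above and −0.23 without 1 of its control mice. Their intervals were wide, and 6 of 18 lay within 1.5-fold, against 2 with the deposited ratio. *Rp1*, a gene of the rod outer segment, had −0.51 (95% interval −1.01 to −0.00, adjusted p = 1.0, limma). Of 12 cone genes, 12 were lower with the offset ratio (median −0.18) and 6 with the deposited ratio (median 0.05). Bipolar cell genes had a median of −0.13, and of 0.00 with the slide as a block, with *Grm6*, the glutamate receptor of ON bipolar cells, at −0.59 (95% interval −1.05 to −0.13, adjusted p = 1.0, limma) and at −0.04 with the deposited ratio. For amacrine and ganglion cell genes the medians were −0.08 and −0.11 (0.03 and 0.02 with the slide as a block), and 9 and 11 of the 12 genes above background on all arrays in each list had intervals within 1.5-fold. The 5 horizontal cell genes had a median of −0.03 with the offset and −0.35 with the deposited ratio, and 1 of them was above background on all arrays.

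Glial and immune genes gave a like picture. In Mueller glia, 11 of 12 genes were lower (median −0.17), and with the slide as a block the median was −0.02. The glutamine synthetase gene *Glul* had −0.41 (95% interval −0.75 to −0.07, adjusted p = 1.0, limma), with all 13 OIR mice below the control median, and −0.14 with the deposited ratio. The 6 astrocyte genes had a median of 0.06, with *Gfap* at 0.04 and above background in 7 mice of each group. Reactive glia and microglia genes had medians of 0.06 and 0.05, and *Trem2*, a receptor of microglia, had 0.28 (95% interval 0.04 to 0.52, adjusted p = 1.0, limma). In 24 genes of cell division the median was 0.18 with the offset ratio, −0.02 with the deposited ratio and −0.01 with the slide as a block, so that its sign depended on the values used.

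**Figure D5:**
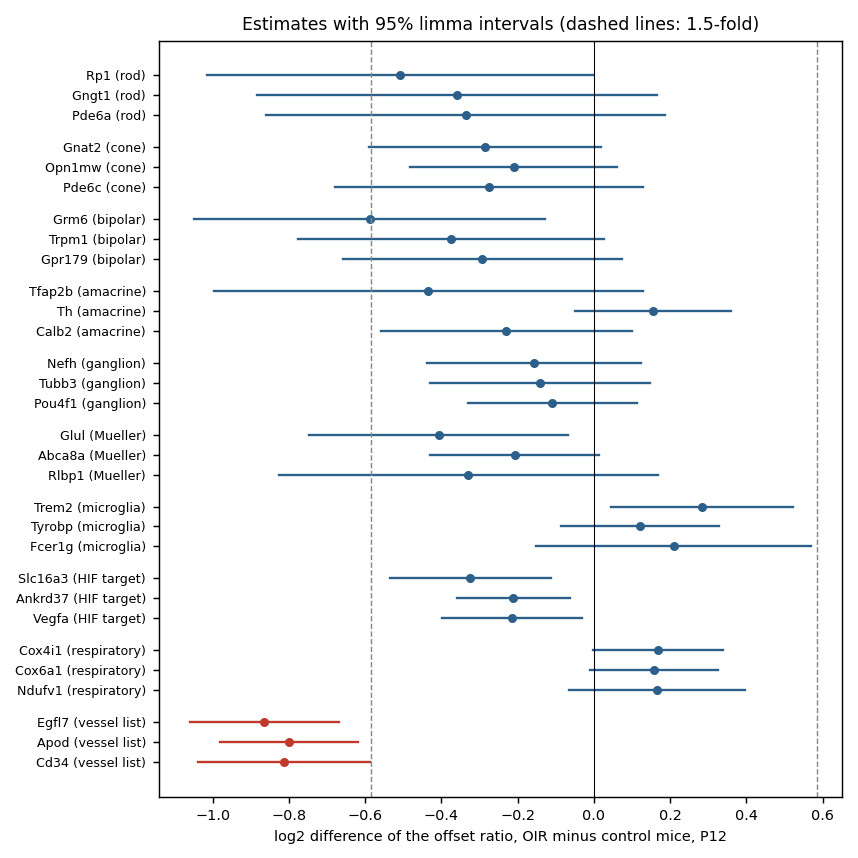
Log2 differences of the offset ratio between OIR and control mice on P12 (points) with their 95% limma intervals (lines), for the 3 genes with the smallest p in each of 10 lists among genes above background on all 25 arrays. Dashed lines mark 1.5-fold. The 3 genes in red, from the vessel list chosen on these samples, have intervals beyond the lower limit, while all other intervals reach inside the limits.

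No gene was higher in OIR mice at an adjusted p under 0.05 with the offset ratio (limma). The 5 higher genes with the smallest p among those above background on all arrays were *Mri1*, *Phka2*, *Acaca*, *Ccdc86* and *Slc48a1*. *Mri1*, an enzyme of methionine salvage, ran from −0.97 to −0.31 in OIR mice (median −0.59) and from −0.94 to −0.65 in control mice (median −0.84). The groups overlapped over the whole control range, although 12 of 13 OIR mice were above the control median. Its difference of 0.24 (adjusted p = 0.25, limma) was 0.37 with the deposited ratio (adjusted p = 0.0353, limma), where it was the one gene called higher. *Phka2*, a regulatory subunit of phosphorylase kinase, had 0.33 (adjusted p = 0.386), and *Acaca*, the acetyl-CoA carboxylase of fatty acid synthesis, 0.19 (adjusted p = 0.894), with no OIR mouse below the control median. *Ccdc86* had 0.25 and *Slc48a1*, a heme transporter, 0.18 (adjusted p = 1.0 each, limma).

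On the later days, which were measured in other mice, 7 of the 12 genes were called higher in OIR mice on P17, where 0.81% of all probes were. These were *Egfl7*, *Gng11*, *Cd34*, *Fn1*, *Cd93*, *Higd1b* and *Acvrl1*, with log2 differences from 0.33 to 1.76. The remaining genes had P17 differences of −0.13 (*Apod*), 0.24 (*Abcc9*), 0.07 (*Ushbp1*), 0.02 (*Acaa1a*) and 0.25 (*Ramp2*), none of them significant. On P28, *Fn1* was the one of the 12 still called (0.67, adjusted p = 0.00767, limma). The difference between OIR and control mice itself differed between P12 and P17 in 11 of the 12 genes (0.487% of all probes) and between P12 and P28 in 8 (0.0395%), by a direct limma contrast.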

How the data were processed

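Two-color arrays (Agilent SurePrint G3 Mouse 8x60K) of 25 P12 retinas were analyzed. Per the file headers, the authors extracted median signals and local backgrounds as raw intensity with Agilent Feature Extraction 10.7.3.1. Their deposited table holds log2 ratios of processed Cy3 over Cy5 signals (99.7 to 99.8% of probes per array equal within 0.001). Per the file headers, the scanner log ratio is a log10 ratio of the processed intensity values, used as an alternative.

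For the offset ratio, signals were background corrected by normexp (offset 50) and normalized by loess within arrays. They were then averaged per probe without outlier spots (0.344 to 0.504% per array) and turned to retina over reference. These steps used limma 3.58.1 (R 4.3.3) after reading by the R package data.table, version 1.17.8. The 55681 non-control probes were tested with lmFit and eBayes and adjusted by Benjamini-Hochberg. No low-signal filter was applied. Symbols for 28047 probes (21160 genes) came from RefSeq accessions (GRCm38.p6). The number of arrays limits the precision. The median residual SD of a probe was 0.0765, and 0.283 for probes above background on all arrays. The procedure was tested on simulated data.

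Genes named are those called with either ratio, the 5 highest by p among higher genes, the first members of 40 gene lists by p, and genes the study names for P12. Some list members, such as *Pecam1* and *Kdr*, were named without regard to p. *Cirbp* and *Rbm3* were chosen after their values were seen. Of 569 listed genes, 564 were measured. The members and lists were chosen with earlier results of these data known. Alternatives were other background, normalization, filters, variance models, slide, sex, one fit over 6 groups and leaving out mice.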

Additional observations from a re-analysis of the deposited data

Results flagged for a closer look

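The OIR effect, the log2 difference between OIR and control mice of one day, differed between P12 and a later day for 11 of the 12 genes lower on P12. The difference was tested directly as a contrast in one limma model over all 77 arrays, in which 0.487% of the probes differed from P12 to P17 and 0.0395% from P12 to P28. The genes were chosen for their P12 difference, so that the sizes are not independent of that choice. The changes were towards higher values in OIR mice. *Gng11* changed by 1.78 from P12 to P17 (adjusted p = 4.03e-21) and by 0.78 from P12 to P28 (adjusted p = 4.35e-06). *Cd34* changed by 2.14 from P12 to P17 (adjusted p = 2.8e-15) and by 1.07 from P12 to P28 (adjusted p = 0.000173). *Cd93* changed by 2.66 from P12 to P17 (adjusted p = 8.76e-19) and by 1.49 from P12 to P28 (adjusted p = 8.83e-08). *Acvrl1* changed by 0.51 from P12 to P17 (adjusted p = 1.16e-07). *Ushbp1* changed by 0.38 from P12 to P17 (adjusted p = 0.0103). *Apod* changed by 0.66 from P12 to P17 (adjusted p = 0.000202) and by 0.97 from P12 to P28 (adjusted p = 4.31e-08). *Ramp2* changed by 0.91 from P12 to P17 (adjusted p = 0.00106) and by 0.86 from P12 to P28 (adjusted p = 0.0171). *Egfl7* changed by 1.95 from P12 to P17 (adjusted p = 5.69e-21) and by 0.82 from P12 to P28 (adjusted p = 1.88e-05). *Higd1b* changed by 1.58 from P12 to P17 (adjusted p = 5.95e-12) and by 0.81 from P12 to P28 (adjusted p = 0.00527). *Fn1* changed by 2.37 from P12 to P17 (adjusted p = 6.38e-19) and by 1.27 from P12 to P28 (adjusted p = 1.83e-07). *Abcc9* changed by 0.62 from P12 to P17 (adjusted p = 0.000723). For *Abcc9*, *Ushbp1* and *Acvrl1* the change to P28 did not pass the threshold (adjusted p = 0.139, 0.0773 and 0.594), and for *Acaa1a* neither change did (adjusted p = 0.221 and 0.743, limma).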

How the results depend on the processing

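Over 41 alternative settings, the difference of each of the 12 genes kept its sign. *Egfl7*, *Apod*, *Gng11*, *Cd34* and *Cd93* stayed differentially expressed in all of them. *Ramp2* lost the call in 25 settings and *Acaa1a* in 24, among them the omission of 18 and 15 single mice. *Acvrl1* lost it in 7, *Abcc9* in 2, and *Ushbp1*, *Higd1b* and *Fn1* in 1 each. The count of 12 was 39 with the deposited ratio, 42 with the scanner log ratio, 41 with the retina channel alone, 21 with array weights and 30 when the slide was a block on deposited values. This last setting and the omission of 1 slide were added after seeing the data. In each of these 5, 1 probe was higher, *Mri1* in all but the last. The count was 8 by Bonferroni, 8 with limma's trend and robust options, and between 10 and 18 when 1 mouse was left out. The median of the 40 other endothelial markers was −0.33 with an offset of 0, −0.49 with the deposited or the scanner log ratio, −0.19 with the retina channel alone, −0.21 with probes above background on at least 12 arrays, −0.51 when the slide was a block on deposited values, and between −0.09 and −0.04 when 1 mouse was left out. The number of probes bounded within limits was 7287 with the narrower limits. The change of the OIR effect was called for 775 probes to P17 and 98 to P28 with the deposited ratio, and for 525 and 56 with the slide as a block. No paired analysis was possible because the replicate numbers name single mice and no number is shared between groups. Signal over background limits what can be read from dim spots, and 22302 probes were above background on no P12 array.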

Other observations

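The cold-inducible RNA-binding protein genes *Cirbp* and *Rbm3*, chosen after their values were seen, had the same direction in most mice. They were examined together with heat shock genes, whose values are not given here. *Cirbp* ran from 2.38 to 3.59 in OIR mice (median 2.99) and from 2.02 to 3.04 in control mice (median 2.50), a difference of 0.51 (95% interval 0.21 to 0.81). *Rbm3* ran from −1.98 to −0.74 in OIR mice (median −1.29) and from −2.32 to −1.20 in control mice (median −1.87), a difference of 0.49 (95% interval 0.20 to 0.78). In both, 2 of the 13 OIR mice lay below the control median. Their unadjusted p were 0.00163 and 0.00179 and their adjusted p 1.0 (limma), so that neither was differentially expressed. The immediate early gene *Egr1* had a difference of 0.39 (95% interval 0.09 to 0.69, adjusted p = 1.0, limma), and 9 of 10 genes of that list were higher with the offset ratio, with a median of 0.13, and of 0.01 with the slide as a block.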
